A study of Mus musculus with 8 samples.

Results

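The transcripts of 9 AP-1 genes were followed in muscle stem cells sorted by the brightness of a Myf5 reporter: Fos, Fosb, Fosl1 and Fosl2 of the Fos family, Jun, Junb and Jund of the Jun family, and the partner genes Atf3 and Maff. These genes were listed by name and matched by Ensembl identifier. All 9 were among the 27554 genes counted, and 8 of them were among the 11730 genes with enough counts to test. Polyadenylated RNA had been sequenced from Pax7-positive cells of mouse hindlimb muscle. Every group came from mice of 1 strain on the C57BL/6NTac background, which carried the allele Pax7tm3955(T2A-ZsGreen)Tac and, with it, the allele Myf5tm3956(T2A-E2Crimson)Tac, so that ZsGreen follows Pax7 and E2Crimson follows Myf5, each joined to its gene through a T2A peptide. The 4 groups were Myf5High and Myf5Low cells of females and of males. Each group had 2 libraries, and each library a pool of 4 mice. No treatment or age was given in the labels.

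AP-1 is a family of dimeric transcription factors that bind DNA through a basic region and a leucine zipper. Fos proteins act only as partners of other zipper proteins, chiefly Jun proteins, whereas Jun proteins can also pair with themselves. Most of the genes are immediate early genes, transcribed quickly and briefly after growth factors, stress or injury, and in muscle stem cells they are known to be induced as the cells leave quiescence, including while the tissue is taken apart.

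Genes of this kind are known to respond through short elements near their start sites, and some of these were searched for. RefSeq sequence of GRCm38.p6 was matched by symbol for 8 of the 9 genes, with 3 start sites for Maff and 10 windows of 250 bases in all, and Fosl1 had none. The RefSeq and GENCODE starts differ for some genes: the Fosl2 window lay wholly within annotated exons (250 of 250 bases), the third Maff window held 95 exon bases, and the Jund window, 70697489 to 70697738 on chromosome 8, ended upstream of the GENCODE start at 70698949. The Atf3 window, 191183334 to 191183583 on chromosome 1, lay inside the GENCODE gene, which starts at 191218039 on the minus strand. Each window was searched on both strands for TGACNTCA (the cAMP response element and its Jun variant), the shorter TGACG, which overlaps it where N is G, TGACTCA (the classic AP-1 site) and the CArG box bound by serum response factor. TGACG was found in windows of 5 of the 8 genes, in 6 of 10 windows against 17.8% of the 32851 windows of this length in the table. TGACNTCA was found for Jun and Maff, in 3 of 10 windows against 7.49% of all. TGACTCA, held by 4.46% of all windows, and the CArG box, held by 1.47%, were in none of the 10 windows. Sequence more than 250 bases before a start was not searched, so elements lying there would have been missed. The windows of Fosl2 and Jund and that of the first Maff start site held none of the motifs. The windows of Fos and Jun are printed because these were the most abundant AP-1 transcripts, that of Junb because it differed most between the sexes, and that of Maff because it differed most between the fractions. Capitals mark matches to these motifs, and each window ends at the base before the RefSeq start site.
Fos, chr12:85473640-85473889, plus strand: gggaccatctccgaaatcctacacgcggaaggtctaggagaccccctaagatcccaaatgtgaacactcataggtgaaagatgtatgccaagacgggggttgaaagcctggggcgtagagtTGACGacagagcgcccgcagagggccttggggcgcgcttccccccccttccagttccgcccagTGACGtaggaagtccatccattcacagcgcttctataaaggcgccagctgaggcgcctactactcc
Jun, chr4:95052223-95052472, minus strand: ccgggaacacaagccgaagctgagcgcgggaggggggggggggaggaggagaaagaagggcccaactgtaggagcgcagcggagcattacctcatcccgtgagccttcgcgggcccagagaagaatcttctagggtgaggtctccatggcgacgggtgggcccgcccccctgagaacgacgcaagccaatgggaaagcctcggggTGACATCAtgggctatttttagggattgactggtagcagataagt
Junb, chr8:84978749-84978998, minus strand: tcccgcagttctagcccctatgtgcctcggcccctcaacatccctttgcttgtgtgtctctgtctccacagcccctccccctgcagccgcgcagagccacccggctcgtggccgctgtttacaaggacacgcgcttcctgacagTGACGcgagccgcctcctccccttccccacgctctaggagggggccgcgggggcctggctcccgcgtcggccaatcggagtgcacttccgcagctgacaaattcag
Maff, second start site, chr15:79347270-79347519, plus strand: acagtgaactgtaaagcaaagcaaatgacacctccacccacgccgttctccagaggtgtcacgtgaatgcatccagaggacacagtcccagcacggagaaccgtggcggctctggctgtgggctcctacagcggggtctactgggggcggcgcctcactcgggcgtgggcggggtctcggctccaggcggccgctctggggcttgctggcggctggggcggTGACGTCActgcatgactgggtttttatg
In Fos the capitals lie 129 to 125 and 66 to 62 bases before the start. In Jun the element TGACATCA lies 45 to 38 bases before it, and in Maff TGACGTCA lies 29 to 22 bases before it. A match describes the letters and does not show that a factor binds there.

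Each library held between 3140361 and 4238427 counts in genes, and 3 counts, the lowest level taken as detectable, came to 0.708 to 0.955 CPM, the read count scaled to a fixed library total. The 9 AP-1 genes together took between 1.11% (95% Wilson interval 1.10 to 1.13, male Myf5Low replicate 2) and 1.90% (1.88 to 1.91, female Myf5High replicate 1) of all gene counts. These intervals cover counting error only, not the spread between libraries. They also make no allowance for PCR copies of 1 molecule, which cannot be recognised in such reads. In each of the 4 groups the 2 replicates lay further apart than counting error allows (chi-square divided by its degrees of freedom, 8.81 to 27.7). This chi-square was computed over all genes except those with few counts, not over the AP-1 genes alone. The sorted identity was checked against 9 muscle stem cell markers, all detected, whose summed level was 5866 to 7842 CPM per library. Myofibre markers summed to 60.1 to 214.9 CPM.

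Fos (chromosome 12, 85473890 to 85477273) and Jun (chromosome 4, 95049034 to 95052222), the founding members of the families, were the most abundant AP-1 transcripts per length. Dividing normalised CPM by the length of the annotated exons gave 1805 ± 566 CPM per kilobase for Fos and 1568 ± 303 for Jun (SD over 8 libraries). On this scale Fos ranked between 6 and 18 among all genes in each library, and Jun between 9 and 17. Junb (chromosome 8, 84974484 to 84978718) followed at 898 ± 304 CPM per kilobase, Jund (chromosome 8, 70698949 to 70700616) at 664 ± 241, and Atf3 (chromosome 1, 191170296 to 191218039) at 408 ± 177 (SD, n = 8 each). Fosb (chromosome 7, 19302696 to 19310051) stood lower at 170 ± 42.7 CPM per kilobase. Fosl2 (chromosome 5, 32135801 to 32157842) and Maff (chromosome 15, 79346621 to 79359076) were lower still, at 18.5 ± 5.03 and 17.9 ± 7.28 CPM per kilobase (SD, n = 8 each). The order of neighbours held in 8 of 8 libraries for Jun over Junb, Atf3 over Fosb, and Fosb over Fosl2. It held in 7 of 8 for Jund over Atf3 and in 6 of 8 for Junb over Jund, and in 5 of 8 for both Fos over Jun and Fosl2 over Maff, so these last neighbours did not differ beyond their spread.

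Fosl1 (chromosome 19, 5447547 to 5455946), which encodes the Fos relative Fra-1, was close to undetected. It had 26 counts in female Myf5High replicate 2, at most 4 in the remaining libraries, and 0 in female Myf5Low replicate 2 and male Myf5High replicate 1, where a count of 0 allows up to 0.784 and 0.708 CPM. It did not pass the filter on low counts and was not tested. Of its annotated exon length, 57.2% is shared with Ccdc85b on the opposite strand, and the authors' strand setting is not given in the sources used here. The same holds for 52.6% of Jund, shared with the antisense gene Gm11175, for 7.52% of Junb, shared with Prdx2, and for 7.28% of Jun, shared with Junos. Counts of these genes, and of Jund in particular, are uncertain to that extent. Of the overlapping genes, Ccdc85b had 0 to 1 counts per library and Prdx2 had 352 to 767. Gm11175 and Junos were not among the genes counted. How reads in the shared parts were assigned was not tested.

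**Figure D1:**
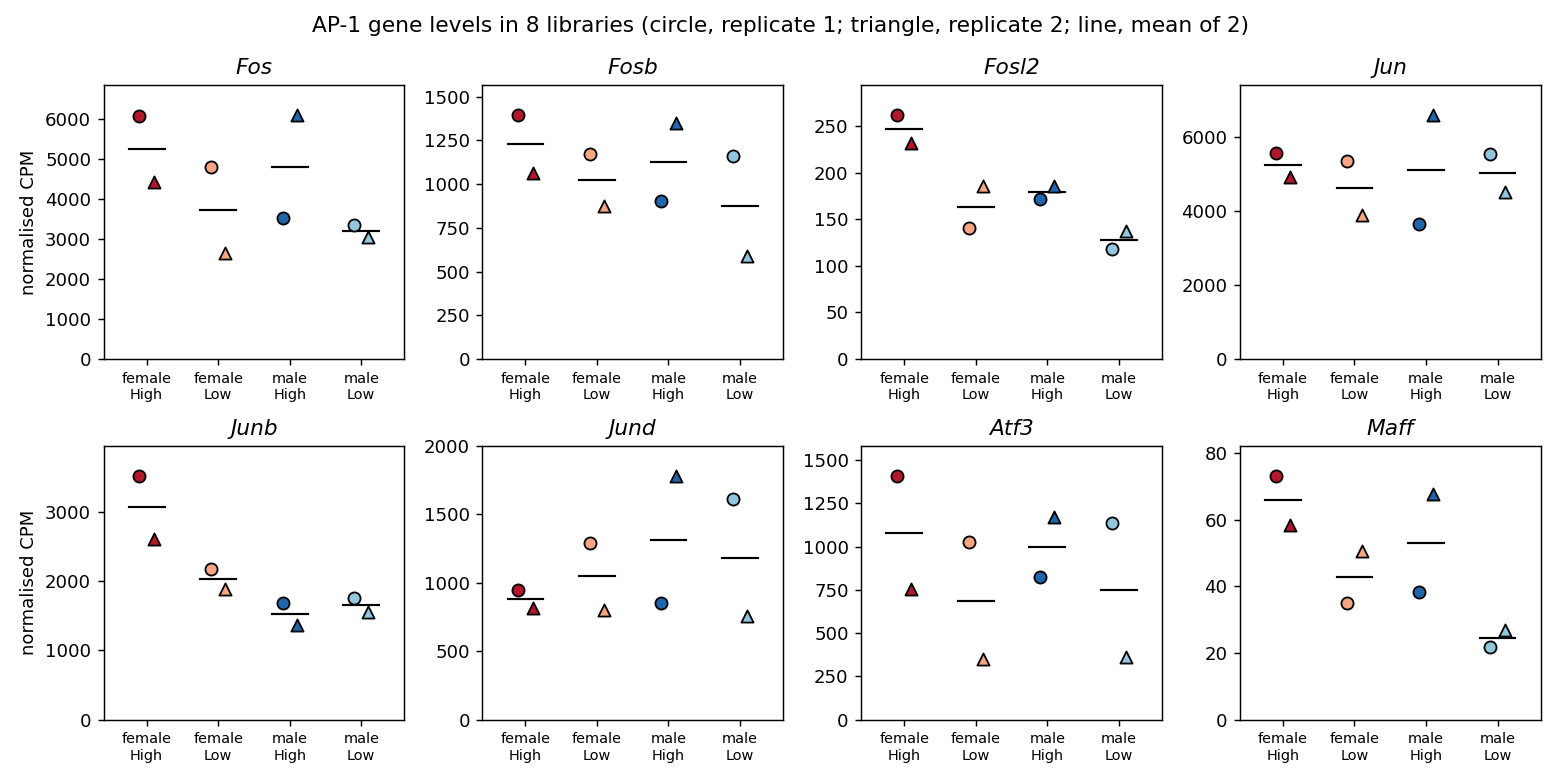
Normalised CPM (vertical axes, starting at 0) of the 8 tested AP-1 genes in the 4 groups (horizontal axes); circles are replicate 1, triangles replicate 2 and lines the mean of 2 libraries. Replicates of a group lie far apart for Atf3 and Jund, and for Junb the 4 female libraries, at 1881 to 3511 CPM, lie above the 4 male ones.

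Myf5High and Myf5Low cells were compared over both sexes to ask which genes differ between the ends of the reporter range. Fos, Fosl2 and Maff were higher in Myf5High in each of the 4 pairs of libraries of the same sex and number without passing the test, and the log2 fold changes of Jun and Jund lay near 0 with wide intervals. In such bulk samples fewer cells of a type and less RNA per cell cannot be told apart. None of the 8 AP-1 genes was called, where called means an edgeR quasi-likelihood p, adjusted by Benjamini-Hochberg across 11730 genes, under 0.05, and 1.2% of all genes were. DESeq2 also called 0 of 8. At an unadjusted p under 0.05, edgeR counted 3 of 8 (Fos, Fosl2 and Maff), against 9.36% of all genes, and DESeq2 counted 3. Shares of all genes called or counted, here and below, are from edgeR. The log2 fold change was above 0 for 7 of 8, against 48.11% of all genes tested. Its median was 0.42, where the median of all genes tested was -0.02. Several AP-1 genes rose and fell together across the libraries, so the 7 are not independent.

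Maff, a small Maf protein with a leucine zipper but no activation domain of its own, differed most. It had 73.1 and 58.6 CPM in female Myf5High, 35.2 and 50.6 CPM in the female Myf5Low libraries, 38.4 and 67.7 CPM in male Myf5High, and 22.0 and 27.0 CPM in male Myf5Low. Both male Myf5High libraries lay above both male Myf5Low libraries, and the same held in females, but over both sexes the fractions overlapped because male Myf5High replicate 1 lay under female Myf5Low replicate 2. The log2 fold change was 0.86 (SE 0.25; 95% interval 0.34 to 1.39; edgeR adjusted p 0.139), with a Myf5High mean of 59.5 ± 15.2 CPM against a Myf5Low mean of 33.7 ± 12.5 CPM (SD, n = 4 each). Maff passed the threshold without male Myf5High replicate 1 (log2 fold change 1.04, edgeR adjusted p 0.0267). It also passed with no filter on low counts (0.86, edgeR adjusted p 0.0466), and over all 13 alternatives its edgeR or DESeq2 adjusted p ranged from 0.0267 to 0.4998.

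Fosl2, the Fos relative Fra-2, had 261.3 and 231.2 CPM in female Myf5High, 140.9 and 185.6 CPM in the female Myf5Low libraries, 171.9 and 186.1 CPM in male Myf5High, and 117.6 and 137.6 CPM in male Myf5Low. Within each sex the Myf5High libraries lay above the Myf5Low libraries. Over both sexes female Myf5Low replicate 2 lay within the male Myf5High range. The log2 fold change was 0.54 (SE 0.18; 95% interval 0.16 to 0.92; edgeR adjusted p 0.238).

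Fos had 6079 and 4422 CPM in female Myf5High, 4802 and 2637 CPM in the female Myf5Low libraries, 3526 and 6086 CPM in male Myf5High, and 3353 and 3050 CPM in male Myf5Low. The highest level of all was in male Myf5High replicate 2, and the lowest in female Myf5Low replicate 2. The fraction means were 5028 ± 1271 and 3461 ± 941 CPM (SD, n = 4 each), and in 3 of the 4 groups the replicates lay further apart than these means. The log2 fold change was 0.54 (SE 0.22; 95% interval 0.07 to 1.01; edgeR adjusted p 0.411), and it was 0.32 without male Myf5High replicate 2 and 0.36 without female Myf5Low replicate 2. Maff, Fosl2 and Fos were the 3 of 8 AP-1 genes higher in Myf5High in 4 of 4 such pairs, which 7.51% of all genes tested were. No AP-1 gene had every Myf5High library above every Myf5Low library, which 2.36% of all genes had.

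Of the remaining Fos gene and partner, Fosb ranged from 588 CPM in male Myf5Low replicate 2 to 1393 CPM in female Myf5High replicate 1, with a log2 fold change of 0.32 (SE 0.22; 95% interval -0.15 to 0.78; edgeR adjusted p 0.779) that ranged from 0.11 without male Myf5Low replicate 2 to 0.605 without male Myf5Low replicate 1. Atf3, a stress-induced zipper protein that pairs with Jun, had the widest range of the 8 tested genes, 4.04-fold between its lowest and highest library. It had 1407 and 753.9 CPM in female Myf5High, 1026 and 348.3 CPM in the female Myf5Low libraries, 826.6 and 1173 CPM in male Myf5High, and 1136 and 363.4 CPM in male Myf5Low. Replicate 2 of both Myf5Low groups was far under replicate 1, and the Myf5High values fell between these extremes or above them. Its log2 fold change was 0.53 (SE 0.33; 95% interval -0.16 to 1.23; edgeR adjusted p 0.717), higher in Myf5High in 3 of 4 same-numbered pairs. Leaving out 1 library moved it between 0.23 (without male Myf5Low replicate 2) and 1.06 (without male Myf5Low replicate 1), and it was 0.245 without female Myf5Low replicate 2, 0.27 without female Myf5High replicate 1 and 1.02 without female Myf5Low replicate 1.

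Over both sexes, the log2 fold changes of Jun, Junb and Jund lay nearer 0 than those of the other tested AP-1 genes. The intervals overlapped, and a difference between the families was not tested. Jun ranged from 3651 CPM in male Myf5High replicate 1 to 6581 CPM in male Myf5High replicate 2, so that a single group held both extremes. Its log2 fold change was 0.10 (SE 0.21; 95% interval -0.33 to 0.54; edgeR adjusted p 0.953), and Junb had 0.24 (SE 0.18; 95% interval -0.14 to 0.61; edgeR adjusted p 0.807), or 0.11 without female Myf5High replicate 1 and 0.16 without male Myf5High replicate 1. Jund, the Jun gene known for steady expression, had 948.5 and 816.2 CPM in female Myf5High, 1293 and 799.5 CPM in the female Myf5Low libraries, 851.1 and 1779 CPM in male Myf5High, and 1612 and 754.5 CPM in male Myf5Low. The 3 highest Jund levels came from 3 different groups. Its log2 fold change was -0.05 (SE 0.26; 95% interval -0.58 to 0.49; edgeR adjusted p 0.986). The upper bounds of these intervals correspond to 1.45-fold for Jun and 1.41-fold for Jund, so larger differences in favour of Myf5High lay outside them.

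The ratio of Fos to Jun within a library does not depend on how libraries are scaled to each other. Per kilobase, the Fos transcript stood at 1.48 and 1.22 times Jun in female Myf5High, 1.22 and 0.917 times in female Myf5Low, 1.31 and 1.25 times in male Myf5High, and 0.82 and 0.918 times in male Myf5Low. It was higher in Myf5High in each of the 4 pairs, although female Myf5High replicate 2 and female Myf5Low replicate 1 were level. The summed Fos family stood at 0.657 to 0.759 times the summed Jun family in Myf5High libraries and at 0.468 to 0.661 times in Myf5Low libraries. These ratios were chosen after the levels had been seen and were not tested.

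**Figure D2:**
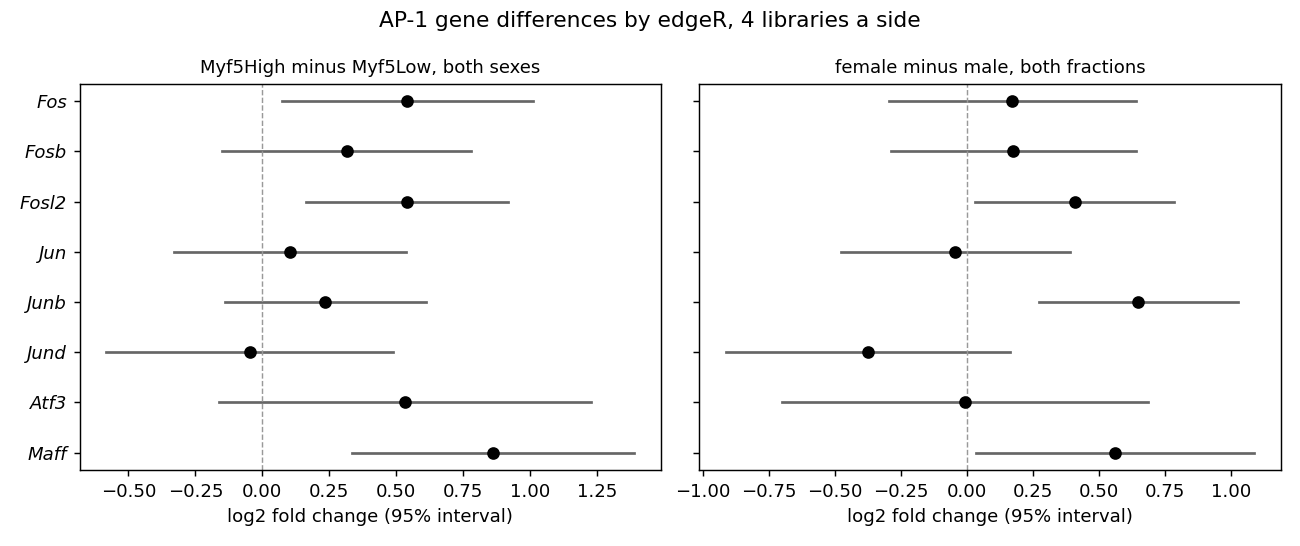
Log2 fold changes (points) with 95% intervals (lines) of the 8 tested AP-1 genes from edgeR, for Myf5High minus Myf5Low (left) and female minus male (right), 4 libraries a side. The points furthest from 0 are Maff on the left, at 0.86, and Junb on the right, at 0.65.

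Taken sex by sex, 0 of 8 AP-1 genes were called in females, where 0.332% of all genes were, and 0 of 8 in males, where 0.171% were (edgeR, with 0 of 8 by DESeq2 in both). In females 2 of 8 had an unadjusted p under 0.05 by edgeR and by DESeq2, Junb and Fosl2, against 7.36% of all genes. In males 1 of 8 did by either tool, Maff, against 6.67% of all genes. The female log2 fold changes were 0.60 (SE 0.25; edgeR adjusted p 0.586) for Junb and 0.59 (SE 0.25; edgeR adjusted p 0.59) for Fosl2. The male one of Maff was 1.11 (SE 0.36; edgeR adjusted p 0.4), from 53.1 against 24.5 CPM, and it was 0.65 without male Myf5High replicate 2. The female value of Junb was 0.35 without female Myf5High replicate 1. The difference of the female and male contrasts, tested itself, was called for 0 of 8 genes and for 0.0% of all genes by edgeR, and for 0 of 8 by DESeq2. At an unadjusted p under 0.05 it was counted for 0 of 8 by edgeR, against 4.54% of all genes, and for 1 of 8, Junb, by DESeq2.

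Junb was the AP-1 gene that differed most between female and male cells, a comparison of 4 libraries a side that, if the 2 fractions of a number came from the same mice, rests on 2 pools per sex. It had 3511 and 2610 CPM in female Myf5High, 2170 and 1881 CPM in the female Myf5Low libraries, 1681 and 1360 CPM in male Myf5High, and 1762 and 1553 CPM in male Myf5Low. Every female library lay above every male library, which held for 1 of 8 AP-1 genes and for 3.59% of all genes. The female mean was 2543 ± 712 CPM and the male mean 1589 ± 175 CPM (SD, n = 4 each), for a log2 fold change of 0.65 (SE 0.18; 95% interval 0.27 to 1.03; edgeR adjusted p 0.0783). With the 2 libraries of each pair summed it also missed the threshold. It passed without male Myf5High replicate 1 (0.73, edgeR adjusted p 0.0303), with no filter on low counts (0.64, edgeR adjusted p 0.032) and in DESeq2 (0.64, DESeq2 adjusted p 0.00631), and over 13 alternatives the adjusted p ranged from 0.00631 to 0.422.

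Among the other AP-1 genes, edgeR called 0 of 8 between the sexes, Junb included, where 1.65% of all genes were called. DESeq2 called 1, Junb, and it called 371 of all genes, where edgeR called 194. At an unadjusted p under 0.05 both tools counted 3 of 8, against 13.9% of all genes by edgeR. These were Junb, Maff (log2 fold change 0.56, SE 0.25, edgeR adjusted p 0.317) and Fosl2 (0.41, SE 0.18, edgeR adjusted p 0.311). Jund had 964 ± 229 CPM in female against 1249 ± 521 CPM in male libraries (SD, n = 4 each), with a log2 fold change of -0.38 (SE 0.26; 95% interval -0.91 to 0.16; edgeR adjusted p 0.552). Leaving out 1 library moved the Jund value between -0.60 (without male Myf5Low replicate 2) and -0.061 (without male Myf5High replicate 2), with -0.062 without male Myf5Low replicate 1. Fos, Fosb, Jun and Atf3 had log2 fold changes between -0.04 and 0.18.

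Replicates of a group often differed in their AP-1 transcripts. Female Myf5High replicate 1 was above the gene's own median for 8 of 8 genes and held the highest level of 5, and male Myf5High replicate 2 was above it for 7 and held the highest of 3. Male Myf5High replicate 1 and male Myf5Low replicate 2 were above it for 0 of 8. Jun, Jund, Atf3 and Fosb lay on the same side of their medians in 8 of 8 libraries. They were high in replicate 1 of both female fractions, in male Myf5High replicate 2 and in male Myf5Low replicate 1. Fosl2 and Maff shared a different pattern, also in 8 of 8 libraries, high in both female Myf5High libraries, female Myf5Low replicate 2 and male Myf5High replicate 2. As a measure of likeness, the root mean square difference of standardised log2 CPM over the 8 libraries was 0.362 between Fosl2 and Maff, 0.46 between Fosb and Atf3, and 1.54 between Fosl2 and Jund.

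**Figure D3:**
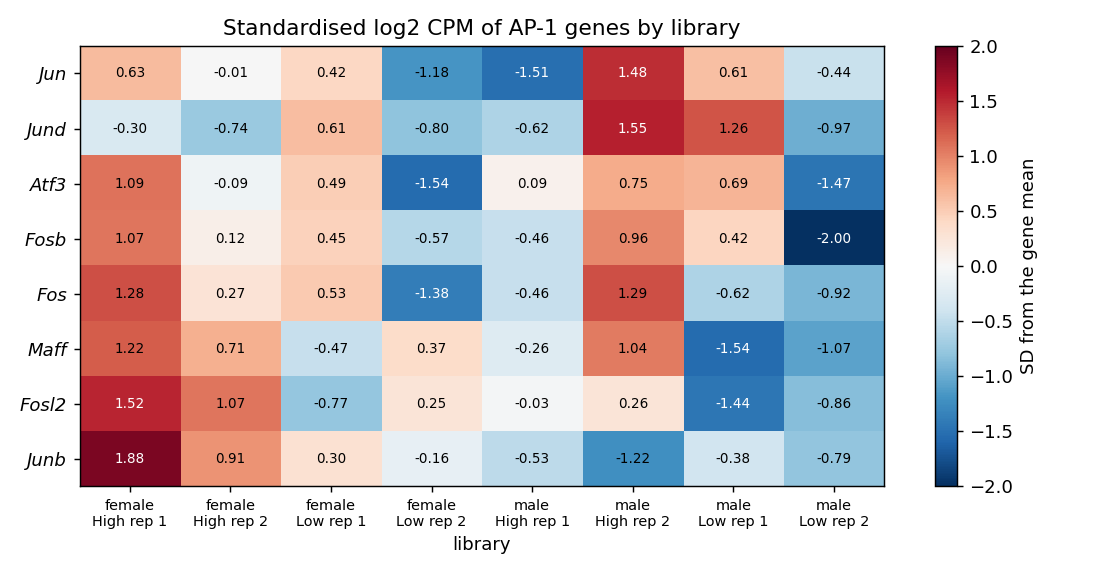
Standardised log2 CPM (colour and printed value, in SD from the gene's mean over 8 libraries) of the 8 tested AP-1 genes (rows) in the 8 libraries (columns). Jun, Jund, Atf3 and Fosb lie on the same side of their own medians, though not always of their means, in 8 of 8 libraries; in female Myf5High replicate 1 Jund stands at -0.30 and Jun at 0.63. Junb is highest in female Myf5High replicate 1, at 1.88, and lowest in male Myf5High replicate 2, at -1.22.

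By the same measure, among the 7854 genes averaging 10 CPM or more, the 5 genes most like Fos were Hsph1, which encodes a heat shock protein, at 0.232, Ttc37, Rbm20, Fam98c and Sap130, up to 0.309. The 5 most like Jun were Map3k14, at 0.215, Trim39, Egr1, Ilk and Gabbr1, up to 0.311. The median over these genes was 1.31 for both. A search over so many genes in so few libraries picks out small values, and the likeness was not tested. The nearest AP-1 gene was Atf3 for Fos, at 0.588, and Jund for Jun, at 0.622. Egr1, an immediate early zinc finger gene, followed Jun at 0.235 and was itself abundant, from 5221 CPM in female Myf5Low replicate 2 to 13390 CPM in male Myf5High replicate 2.

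Genes known to work around AP-1 were then counted in 5 lists, between the fractions first, where 1.2% of all genes were called. Of 19 tested upstream kinases and factors, 0 were called higher and 1 lower in Myf5High, with a median log2 fold change of 0.03. The gene called was Map3k5, a stress kinase upstream of Jun kinase, which fell in Myf5High by 1.01 on the log2 scale (SE 0.24; edgeR adjusted p 0.0478). It did not pass with RLE scaling (edgeR adjusted p 0.0507) or in 7 of 8 fits that left out 1 library, all but that without male Myf5High replicate 2 (edgeR adjusted p 0.0754 to 0.195; lowest over 13 alternatives 0.00155). Of 20 tested zipper proteins that can pair with AP-1 proteins, 1 was called higher and 0 lower, with a median of 0.21. This was Cebpd, a C/EBP family gene, which had 589.6 and 447.3 CPM in female Myf5High libraries against 246.7 and 223.4 CPM in the female Myf5Low ones. In males Cebpd had 256.5 and 326.8 CPM in Myf5High and 138.9 and 175.1 CPM in Myf5Low, so all 4 Myf5High libraries lay above all 4 Myf5Low libraries. Cebpd rose by 1.02 on the log2 scale (SE 0.18; edgeR adjusted p 0.00598). It missed the threshold without female Myf5High replicate 1 (0.90, edgeR adjusted p 0.0587), and over 13 alternatives the adjusted p ranged from 7.9e-06 to 0.0587.

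Feedback inhibitors, a list of phosphatases, RNA-binding proteins and the signalling inhibitors Socs3 and Nfkbia, had 3 of 13 tested genes called higher in Myf5High and 0 lower, where 1.2% of all genes were called in either direction. The list's median log2 fold change was 0.54, against -0.018 over all genes. Dusp8, Dusp14 and Dusp16 rose, all members of the dual-specificity phosphatase family, of which Dusp8 and Dusp16 are known to act on Jun kinase and p38. Dusp16 had 78.6 and 69.3 CPM in female Myf5High, 31.3 and 32.0 CPM in the female Myf5Low libraries, 52.8 and 41.4 CPM in male Myf5High, and 22.2 and 21.02 CPM in male Myf5Low. The fractions did not overlap for Dusp16, which rose by 1.17 (SE 0.23; edgeR adjusted p 0.0107). Dusp8 had 1.23 (SE 0.26; edgeR adjusted p 0.0166) and Dusp14, at a mean of 11.9 CPM, had 1.83 (SE 0.41; edgeR adjusted p 0.0332). Dusp16 missed the threshold without female Myf5Low replicate 2 (edgeR adjusted p 0.0549) and without female Myf5High replicate 1 (0.0802). Dusp8 missed it without either female Myf5Low library, male Myf5Low replicate 1 or female Myf5High replicate 1 (edgeR adjusted p 0.0601 to 0.0828). Dusp14 missed it in all fits that left out 1 library except that without male Myf5High replicate 2 (edgeR adjusted p 0.0597 to 0.121). The lowest adjusted p over all alternatives was 0.000301 for Dusp16, 0.000113 for Dusp8 and 0.00409 for Dusp14. In males alone Dusp8 was called with the pool as a block (1.81, edgeR adjusted p 0.0461) and not without it (0.0697).

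Early genes that are induced alongside AP-1 numbered 22, with 0 called between the fractions in either direction by edgeR, where 1.2% of all genes were called. At an unadjusted p under 0.05 there were 7 of 22, against 9.36% of all genes, and the list's median log2 fold change was 0.35. With the pool as a block Ier3, an early gene of the stress response, was called (1.01, edgeR adjusted p 0.00879, against 0.0505 without the block). Of 24 known AP-1 target genes 14 were tested, 1 of them called higher and 0 lower, with a median of 0.55. Vim, the intermediate filament vimentin, rose by 0.76 (SE 0.17; edgeR adjusted p 0.0351). With the pool as a block its log2 fold change was 0.75 (SE 0.19) and missed the threshold (edgeR adjusted p 0.0749). Nor did it pass when any 1 library other than male Myf5High replicate 2 was left out (edgeR adjusted p 0.0778 to 0.26; lowest over 13 alternatives 0.000739). The targets below the filter included Mmp3, Mmp10, Mmp13, Il6, Lif and Spp1, at means of 0 to 0.673 CPM.

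Between the sexes, 8 genes were called in the lists of early genes, feedback inhibitors, zipper proteins and upstream factors, each higher in females. The early genes held 4 of 22, the feedback inhibitors 2 of 13, and the zipper proteins and the upstream factors 1 each, of 20 and 19, where 1.65% of all genes were called in either direction. The medians of these 4 lists were 0.41, 0.53, 0.10 and 0.04, against -0.015 for all genes tested. The early genes were Nr4a2 (log2 fold change 1.79, SE 0.28, edgeR adjusted p 0.00161) and Nr4a1 (1.47, SE 0.29, edgeR adjusted p 0.0115), which encode orphan nuclear receptors, Ccn1 (1.12, SE 0.23, edgeR adjusted p 0.0133), a matrix protein, and Btg2 (0.91, SE 0.17, edgeR adjusted p 0.0105), an inhibitor of proliferation. The inhibitors were Dusp6, a phosphatase of ERK (1.61, SE 0.30, edgeR adjusted p 0.00883), and Dusp1 (0.98, SE 0.19, edgeR adjusted p 0.0109). The remaining genes were Cebpb (0.98, SE 0.20, edgeR adjusted p 0.0133) and Srf, which encodes serum response factor (0.91, SE 0.21, edgeR adjusted p 0.0329). All 8 were also called with the 2 libraries of each pair summed, which leaves 2 samples per sex. Nr4a2 stayed past the threshold in all 8 fits that left out 1 library. Without female Myf5High replicate 1 the edgeR adjusted p was 0.0556 for Nr4a1, 0.112 for Ccn1, 0.103 for Btg2, 0.0595 for Dusp1, 0.0874 for Cebpb and 0.143 for Srf. Without female Myf5Low replicate 2 it was 0.0782 for Dusp6, 0.0678 for Dusp1 and 0.163 for Srf. Cebpb also missed the threshold without female Myf5Low replicate 1 (edgeR adjusted p 0.0579) and without male Myf5Low replicate 2 (0.0593). Srf did so without female Myf5High replicate 2 (edgeR adjusted p 0.0717), male Myf5Low replicate 1 (0.156) or male Myf5High replicate 2 (0.0615).

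**Figure D4:**
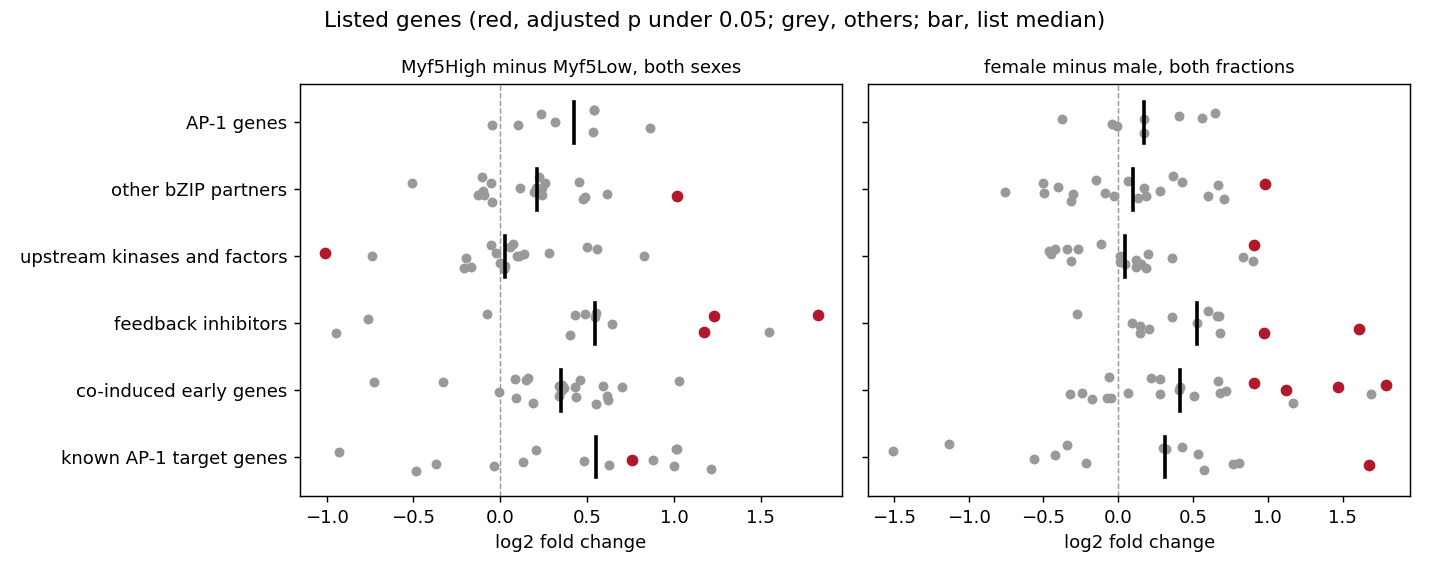
Log2 fold changes (horizontal axes) of the 8 tested AP-1 genes and of 5 lists of genes around AP-1 (rows), for Myf5High minus Myf5Low (left) and female minus male (right). Each point is a gene, red at an edgeR adjusted p under 0.05, and bars are list medians; no AP-1 gene is red on either side, and 3 feedback inhibitors on the left and 4 early genes on the right are.

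Markers of other cells were also counted, since AP-1 genes are transcribed in most cell types. Between the fractions, 8 immune markers summed to 21.6 to 56.9 CPM in Myf5High libraries and 54.9 to 96.2 CPM in Myf5Low, with C1qa called lower in Myf5High. The 6 mural markers summed to 327.5 to 475 CPM and 351 to 730 CPM, with Acta2 called lower, and the 7 stromal markers to 712 to 1575 CPM and 461.5 to 692 CPM, with Dpt called higher. The 4 genes of committed myogenic cells summed to 21.7 to 75.3 CPM in Myf5High and 172 to 740 CPM in Myf5Low, with Mymk and Myog called lower in Myf5High. Of the 9 stem cell markers, Calcr and Myf5, the gene whose reporter defined the sort, were called higher in Myf5High. The 8 endothelial markers summed to 283 to 493 CPM in females and 534 to 921.5 CPM in males. Those of committed myogenic cells reached higher in females, at 67.5 to 740 CPM against 21.7 to 237 CPM in males. Stromal markers reached higher in males, at 670 to 1575 CPM against 461.5 to 752 CPM in females. In both of these lists the sexes overlapped. The 6 glial markers summed to 39.2 to 132.8 CPM. No marker of any list was at 0 in every library, and the part of these cells in the AP-1 values was not tested.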

How the data were processed

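The deposited table holds raw counts of reads, not normalised, for each Ensembl gene and library. Per the submitters' processing notes, HTSeq and the build GRCm38 were used; the aligner, annotation release and strand setting are not given in the sources used here. Reads outside genes (42.0% to 45.3% of those tallied) and ambiguous reads (0.248% to 0.296%) were left out. Of 27554 genes, 27441 matched GENCODE M21 on GRCm38, which gave positions and exon lengths.

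The model was fitted by edgeR 4.0.16 (R 4.3.3): filterByExpr (minimum count 10, minimum total 15), TMM scaling, 1 mean per group over 8 libraries, and glmQLFit with glmQLFTest, two-sided, Benjamini-Hochberg adjusted over 11730 genes. The common biological coefficient of variation was 0.36. Standard errors came from the fold change and its F statistic, and 95% intervals from the t distribution with the fitted degrees of freedom. Levels are TMM-normalised CPM; differences within a pool used log2(CPM + 0.5).

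Myf5High and Myf5Low libraries of a sex with the same number have pool names in the labels that share their start (F1N and F1P). That they are fractions of the same mice was inferred from this, and the pool was tried as a block. The correlation over genes between the deviations of such libraries was 0.0275 (females) and -0.000273 (males). The labels do not state that mice were shared, and p-values measure the spread between libraries.

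On simulated counts for Myf5High against Myf5Low with 200 of 11730 genes changed by a log2 fold change of 2, edgeR found 139 and made 11 false calls; DESeq2 1.42.0 found 148 and made 23. Without any change edgeR called 0 genes.

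The AP-1 genes and the other lists were chosen with earlier results of these data known. All 9 AP-1 genes are named; from each list, genes called in any of the 5 comparisons are named, at most 4 by lowest p, and for Fos and Jun the 5 most similar genes. The genes named outside these rules (Dusp14, the fifth such gene of its list, Ier3, targets below the filter and called markers of other cells) were chosen after their values were seen. The values of 1 listed gene are not reported here.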

Additional observations from a re-analysis of the deposited data

Results flagged for a closer look

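There were 3 results flagged by rules on outlying libraries and on opposite signs between the sexes. The Fos level of male Myf5High replicate 2, at 6086 CPM, was separated from the other 3 male libraries by 0.843 of the whole male range, past the 95% critical value of Dixon's test for 4 samples. The Jund level of the same library, at 1779 CPM, was separated from the other 3 Myf5High libraries by 0.863 of their range. These were 2 flags among 32 groups of 4 examined, each joining libraries of 2 groups, and chance flags about 1 group in 20. For Junb, both female pairs of the same number were higher in Myf5High (log2 differences 0.694 and 0.472) and both male pairs lower (-0.068 and -0.191). How many of all genes have such opposite signs was not counted, so the pattern is not known to be unusual. The female minus male log2 fold change of Junb was 0.72 (SE 0.36, 95% interval -0.03 to 1.47). The edgeR test of that difference gave an adjusted p of 0.9998 over all genes and an unadjusted p of 0.0595.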

How the results depend on the processing

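The count of AP-1 genes called was 0 in each of the 5 comparisons. It became 1 (Maff) for Myf5High against Myf5Low over both sexes with no filter on low counts, and 1 (Junb) for female against male with no filter and in DESeq2. Over the fits that left out 1 library it ranged from 0 to 1 in both, the 1 arising without male Myf5High replicate 1, and it was 0 in the other 3 comparisons. With the pool as a replicate block it was 0 for both sexes, for females, for males and for the interaction, and among AP-1 genes the block changed no call. Near 0, signs turned: for Jun in males the log2 fold change was -0.001 when only genes averaging 50 counts were kept and -0.028 with the block, and for Atf3 between the sexes it was 0.05 with summed pools. Leaving out 1 library gave ranges that crossed 0 over both sexes for Jun (-0.14 to 0.29) and Jund (-0.36 to 0.28), and in females for Jun (-0.039 to 0.42) and Jund (-0.56 to 0.135). In males they crossed 0 for Fosb (-0.044 to 0.95), Jun (-0.465 to 0.39), Junb (-0.285 to 0.017), Jund (-0.48 to 0.82) and Atf3 (-0.19 to 1.47), and between the sexes for Fos (-0.089 to 0.40), Fosb (-0.029 to 0.45), Jun (-0.23 to 0.20) and Atf3 (-0.51 to 0.51). The cause of these changes was not tested. The ranges of Fos, Fosl2 and Maff stayed above 0 over both sexes (lowest 0.32, 0.45 and 0.63). So did those of Fosb, Junb and Atf3 (lowest 0.11, 0.112 and 0.233). RLE scaling left the count of AP-1 genes at 0 throughout.

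Counts over all genes moved more. Those of 141 (both sexes), 39 (females), 20 (males), 0 (interaction) and 194 (female against male) became 291, 167, 111, 14 and 477 with no filter, and 234, 112, 72, 2 and 371 in DESeq2. Without 1 library they ranged from 82 to 243, 9 to 117, 8 to 74, 0 to 8 and 82 to 558. With only the libraries compared, the female count was 77 and the male count 2. The alternatives of the listed genes around AP-1 were added after seeing the data.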
